A study of Canis lupus familiaris with 28 samples.

Results

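Confluent TR-T10 cells carrying shRNAs against both p190A and p190B were compared with confluent TR-T10 cells carrying the p190A shRNA alone, by RNA sequencing, with 2 libraries on each side. These 4 libraries are 4 of the 28 samples of the series and were picked by their labels. p190A, encoded by ARHGAP35, and p190B, encoded by ARHGAP5, are closely related GTPase-activating proteins that switch off the small GTPase RhoA. RhoA drives actin filament assembly and actomyosin contraction, and a contractile, spread cell keeps the coactivators YAP1 and TAZ in the nucleus, where they act with TEAD transcription factors on growth genes. In epithelial sheets, crowding silences this output through the Hippo kinases, which is part of contact inhibition of proliferation. The comparison asks what changes in a crowded culture that already has the p190A shRNA when the p190B shRNA is present too.

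TR-T10 is a dog cell line, used here with retroviral shRNAs that doxycycline turns on. The p190A cells were selected in hygromycin. The double-knockdown cells were not made from them: the p190B cells, selected in puromycin, received the p190A shRNA and were then selected in hygromycin as well. Doxycycline at 4 µg/ml was given for 3 days to start knockdown, after which cells were replated at either density and kept for another 3 to 5 days. The 2 sides therefore differ in the p190B shRNA, in puromycin selection and in the history of the line, and these cannot be told apart. Experiment 1 also covered the wild type and the p190B shRNA alone, and each of its lines was sequenced confluent and sub-confluent with 2 libraries a group. Experiment 2 held confluent wild-type and double-knockdown cells and double-knockdown cells with YAP5SA+S94A, 3 libraries each, as well as libraries labelled YAP5SA. YAP5SA is YAP1 made resistant to the Hippo kinases, and the S94A change takes away its binding to TEAD. The labels do not say whether wild-type cells received doxycycline or whether replicates came from separate cultures. The p-values therefore reflect only how far these libraries differ from each other, which may be technical.

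The deposited counts are listed by Ensembl dog transcript, and neither they nor the reference table (0 of 29884 identifiers matched) pair a transcript with a gene. The knockdown of ARHGAP35 and ARHGAP5 could therefore not be checked, epithelial markers could not be checked, and transcripts are described by identifier, level and behaviour across groups. The 4 libraries held 11696718 to 15390387 transcript counts. Reads aligned to several places, which are not in those counts, made up 25.7% to 26.3% of all entries in the p190A libraries and 27.9% to 28.4% in the double-knockdown libraries, and their part in the results was not tested. Levels are in CPM, each transcript's counts relative to all transcript counts of its library, without further scaling. They do not take transcript length into account, so they compare libraries and not transcripts.

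The double-knockdown libraries stood well away from the p190A libraries. The median absolute log2 difference over 12845 tested transcripts was 0.15 between the p190A replicates and 0.15 between the double-knockdown replicates, against 0.29 to 0.35 between libraries of the different lines. The double knockdown lay farther still from wild type, at 0.40 to 0.45, and from the p190B cells, at 0.36 to 0.42. The p190A cells, in contrast, were only 0.24 to 0.27 from wild type and 0.25 to 0.28 from the p190B cells. All of these are levels on the log2(CPM + 0.5) scale.

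In double-knockdown against p190A cells, 1686 transcripts were higher and 1599 lower, or 25.6% of the 12845 tested, 13.1% in the higher and 12.4% in the lower direction (edgeR quasi-likelihood test, Benjamini-Hochberg adjusted p under 0.05). Every one of these 3285 transcripts had CPM values without overlap between the 2 lines, but so did many that were not called: 35% of all tested transcripts lay higher without overlap and 33.2% lower. The changes were mostly moderate. The median log2 fold change was 0.69 among the higher and -0.76 among the lower transcripts, with median standard errors of 0.16 and 0.17. At least 2-fold changes were seen for 447 higher and 540 lower transcripts, 3.48% and 4.2% of those tested. At least 4-fold changes were seen for 81 higher and 156 lower ones, so that the lower side held more of the large changes. Of the called transcripts, 4 of the higher and 10 of the lower ones had no count in either library of 1 group. Setting these against 3 counts over the group left the medians and the 2-fold counts as they were and gave 78 and 155 changes of at least 4-fold.

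**Figure D1:**
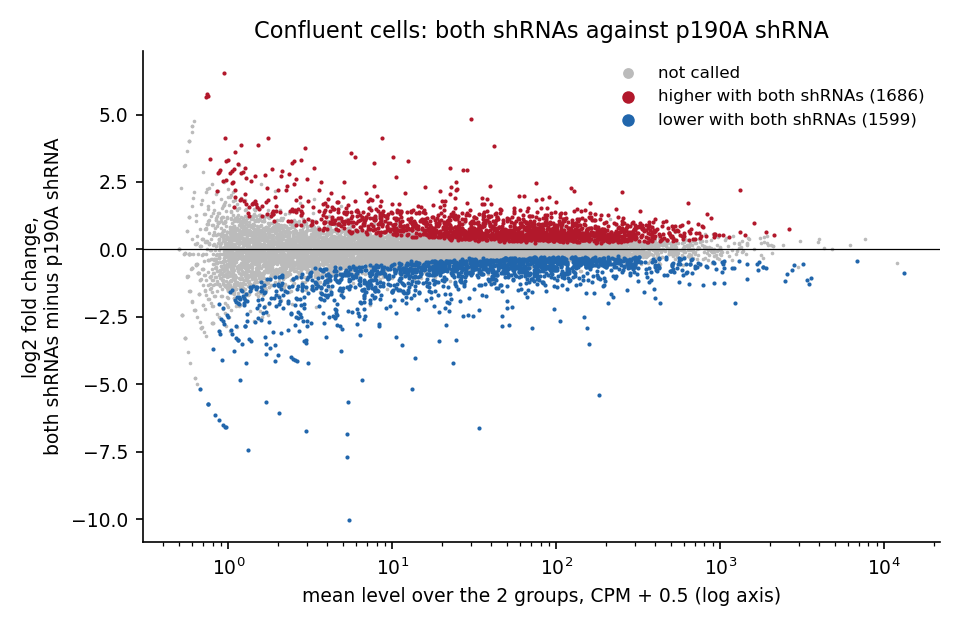
Log2 fold change (double knockdown minus p190A shRNA, confluent) of each of 12845 transcripts against its mean level in CPM + 0.5 on a log axis, with called transcripts in red (1686 higher) and blue (1599 lower) and the rest in grey. Among called transcripts, changes of at least 4-fold are more numerous below 0 (156) than above it (81).

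The balance between directions shifted with abundance. The tested transcripts were divided by mean CPM over the 4 libraries into 5 groups of 2569. The least abundant group, up to 2.80 CPM, had 3.93% called higher and 6.85% lower. In the most abundant group, from 93.8 CPM upward, 21.4% were called higher and 15.5% lower. Precision moved with this, since the median standard error fell from 0.51 in the least to 0.12 in the most abundant group. Calls of at least 2-fold followed another course, at 12.6% of the group from 2.80 to 13.01 CPM and 4.44% of the most abundant group. The median absolute log2 fold change over all transcripts, called or not, was 0.28 in the most and 0.57 in the least abundant group. Among called transcripts it was 0.56 and 1.99, and a change must be larger to be called where the standard error is larger.

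Together the changed transcripts made up a large part of the messenger RNA counted. The 1686 higher transcripts held 13.3% and 13.9% of all transcript counts in the p190A libraries and 21.6% and 21.5% in the double-knockdown libraries. The 1599 lower transcripts went from 23.8% in each p190A library to 14.1% and 14.9%. In wild-type cells the shares were 13.1% and 13.4% for the higher and 23.4% and 23.7% for the lower ones. The median level of the lower ones was nonetheless above that in p190A cells, at 46.3 CPM in each wild-type library against 41.6 CPM in each p190A library. The p190B cells were at 14.4% and 14.6% for the higher and 20.2% and 21.2% for the lower ones. These shares describe transcripts chosen by their difference between the p190A and double-knockdown libraries. The wild-type and p190B libraries entered that choice only through the filter, scaling and spread of the shared fit.

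The number of calls leaned on each of the 4 libraries, and with 1 of them left out its partner stands alone, its spread taken from the remaining groups. Without p190A replicates 1 and 2 the 3285 calls became 1482 and 1887, and without double-knockdown replicates 1 and 2 they became 1468 and 2070. The 987 calls of at least 2-fold became 620 without p190A replicate 1 and 628 without double-knockdown replicate 1.

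Among transcripts with a mean of at least 3 on the log2(CPM + 0.5) scale and no overlap between groups, 1434 higher and 1212 lower ones were eligible to be named, and the 2 with the largest fold change in each direction are described with their level in each library. These levels chose the transcripts in the confluent p190A and double-knockdown libraries. The other libraries of experiment 1 entered the choice only through the filter, scaling and spread of the shared fit. Those of experiment 2 took no part in it.

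Transcript ENSCAFT00000008568 had the largest increase. It was at 2.13 and 1.88 CPM in the p190A libraries and at 68.9 and 45.7 CPM in the double-knockdown libraries, a log2 fold change of 4.82 (SE 0.59, edgeR adjusted p = 0.00012). Wild-type cells held 27.1 and 19.5 CPM and p190B cells 131 and 99.5 CPM, so the p190A libraries were the lowest of the confluent ones. The p190A libraries were again the lowest at sub-confluent density, with 1.11 and 2.18 CPM against 35.2 and 99.3 CPM in the double-knockdown libraries (log2 fold change 5.30, SE 0.59, edgeR adjusted p = 5e-05). Sub-confluent wild-type cells, at 24.5 and 54.0 CPM, overlapped the double knockdown there. The transcript was also higher in p190B than in wild-type cells at confluence, by 2.36 on the log2 scale (SE 0.45, edgeR adjusted p = 0.0029). In experiment 2, wild-type cells at 87.7 ± 2.32 CPM (SD, n = 3) and double-knockdown cells at 79.98 ± 3.43 CPM (SD, n = 3) differed by a log2 fold change of -0.06 (SE 0.04), which did not pass the test (edgeR adjusted p = 0.17).

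Transcript ENSCAFT00000029200 was highest in the double-knockdown line among the confluent groups of experiment 1. It was at 4.98 and 5.81 CPM in the p190A libraries and 90.3 and 63.9 CPM in the double-knockdown libraries, a log2 fold change of 3.83 (SE 0.70, edgeR adjusted p = 0.0017). Wild-type cells were at 1.401 and 1.336 CPM and p190B cells at 0.991 and 1.02 CPM. All confluent libraries outside the double knockdown thus stayed below 6 CPM. At sub-confluent density the p190A replicates disagreed, at 6.03 and 46.9 CPM, while the double-knockdown libraries were at 78.1 and 131 CPM (log2 fold change 1.94, SE 0.59, edgeR adjusted p = 0.034). In experiment 2 the double-knockdown libraries were between 58.9 and 60.8 CPM and the wild-type libraries between 0.986 and 1.45 CPM.

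Transcript ENSCAFT00000036275 had the largest decrease. It was at 62.1 and 68.8 CPM in the p190A libraries and at 0.658 and 0.650 CPM, from 8 and 10 counts, in the double-knockdown libraries, a log2 fold change of -6.63 (SE 0.32, edgeR adjusted p = 9.9e-08). It was also near 0 in the sub-confluent double-knockdown libraries, at 0.601 and 0.174 CPM from 8 and 3 counts, against 56.0 and 36.1 CPM with the p190A shRNA. Wild-type cells at confluence held 50.6 and 53.1 CPM and p190B cells 87.1 and 77.0 CPM. The double-knockdown cells of experiment 2 went against this, with 60.9, 54.3 and 54.9 CPM, all above the 30.0 to 31.8 CPM of their wild type (log2 fold change 0.95, SE 0.06, edgeR adjusted p = 6.3e-22). The transcript was thus low in all 4 double-knockdown libraries of experiment 1 and in none of the 3 of experiment 2.

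Transcript ENSCAFT00000014635 fell in a graded way at confluence. Confluent wild-type cells were at 507 and 517 CPM, p190A cells at 357 and 355 CPM, p190B cells at 133 and 216 CPM and double-knockdown cells at 6.74 and 9.88 CPM. None of these 4 groups overlapped. The log2 fold change between double-knockdown and p190A cells was -5.41 (SE 0.37, edgeR adjusted p = 1.1e-06) and that between p190B and wild-type cells was -1.51 (SE 0.29, edgeR adjusted p = 0.0035). Sub-confluent cells gave 335 and 159 CPM with the p190A shRNA and 3.76 and 2.32 CPM with both. Sub-confluent wild-type cells were at 277 and 189 CPM, between the p190A replicates, so wild type and p190A were not graded there. In experiment 2 it was lower in double-knockdown cells too, at 55.4 ± 1.48 CPM (SD, n = 3) against 288 ± 5.03 CPM (SD, n = 3) in wild type, a log2 fold change of -2.31 (SE 0.04, edgeR adjusted p = 1.4e-49).

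**Figure D2:**
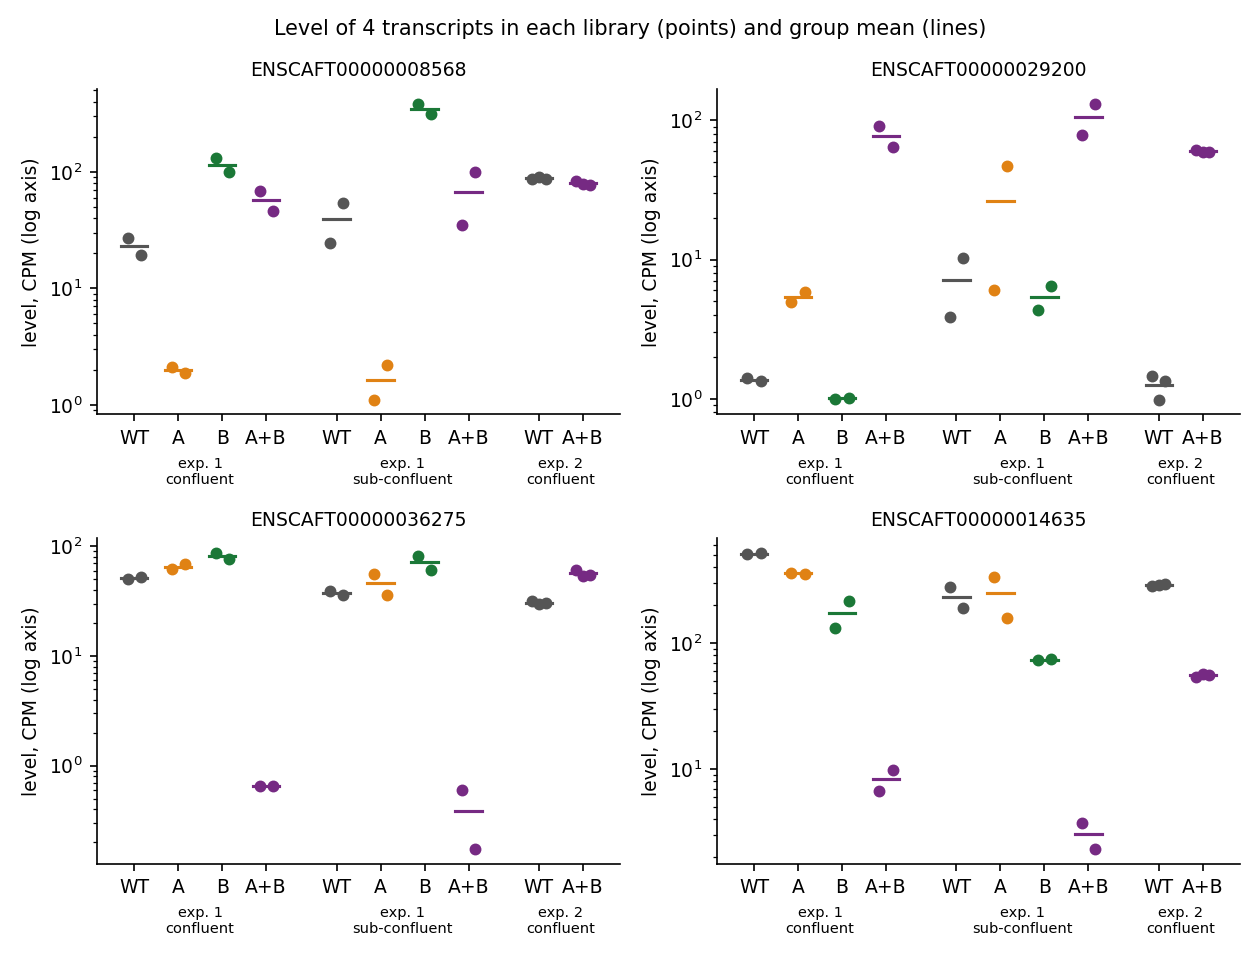
Level in CPM, on a log axis, of the 4 named transcripts in each library (points) with the group mean (lines), for wild type (WT), p190A shRNA (A), p190B shRNA (B) and both (A+B). ENSCAFT00000036275 is below 1 CPM in the 4 double-knockdown libraries of experiment 1 and above 54 CPM in those of experiment 2.

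The p190B shRNA was also present without the p190A shRNA, and the p190B and wild-type libraries are not among the 4 compared above. Both comparisons come from the same fit and share each transcript's spread, so their calls are not independent. At confluence, p190B cells had 904 transcripts higher and 725 lower than wild type, 12.7% of those tested, 7.04% higher and 5.64% lower. Of the 1686 transcripts higher in double-knockdown than in p190A cells, called the raised transcripts here, 301 were higher and 56 lower in this comparison, and 1329 were not called. Of the 1599 lowered transcripts, 305 were lower, 72 higher and 1222 not called. The shared transcripts were 17.9% of the raised and 19.1% of the lowered list here, and 33.3% and 42.1% of the lists of the p190B comparison. The median log2 fold change of the raised transcripts was 0.11 in p190B against wild-type cells and that of the lowered ones -0.21, beside -0.01 over all tested transcripts. For transcripts changed at least 2-fold these medians were 0.19 and -0.50. The number called in the p190B comparison became 830 and 1018 without p190B replicates 1 and 2, and 885 and 814 without wild-type replicates 1 and 2. The 606 shared transcripts became 360 and 400 without p190A replicates 1 and 2 and 371 without double-knockdown replicate 1.

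Whether the p190B shRNA went with a different change in the presence of the p190A shRNA was tested as an interaction in the same fit. The p190B cells were selected in puromycin, and the labels do not say whether wild-type cells received doxycycline. Selection, doxycycline and the history of the lines therefore cannot be told apart from the shRNAs in this test. It was called for 1293 transcripts, 10.1% of those tested, with 653 shifted upward (5.08%) and 640 downward (4.98%) in the p190A background. In the 653, the median log2 fold change was 0.76 for double knockdown against p190A and -0.32 for p190B against wild type, and in the 640 it was -0.52 and 0.46. The interaction is the difference between these comparisons. That the first median lies above the second in the 653, and below it in the 640, thus follows from the choice. The 56 transcripts that were higher in the first and lower in the second comparison all had the interaction called, as did all 72 with the opposite pair of calls. Calls in opposite directions make the interaction larger than either difference, so this overlap was nearly fixed in advance. A further 440 transcripts were raised only over p190A cells with the interaction called, and 284 were lowered likewise. The interaction holds the comparison that made the raised and lowered lists, so these counts are no separate evidence. For most transcripts with a call in the p190A background, 889 raised and 938 lowered ones, neither the p190B comparison nor the interaction passed the test. The interaction count became 615 and 786 without p190A replicates 1 and 2, 659 and 816 when double-knockdown replicates 1 and 2 were left out, 857 and 786 for the p190B replicates, and 717 and 712 for wild type.

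The same 2 lines were compared at sub-confluent density, in other libraries of the same fit. Each transcript's spread was shared by both comparisons, so the calls at the 2 densities are not independent. Their overlap was not counted in separate fits. There 1111 transcripts were higher and 1510 lower in the double knockdown than with the p190A shRNA alone, 20.4% of those tested, 8.65% higher and 11.8% lower. Of the 1686 raised transcripts, 683 were again higher and 13 lower, and of the 1599 lowered ones 942 were again lower and 2 higher. These shared transcripts are 40.5% and 58.9% of the confluent lists and 61.5% and 62.4% of the sub-confluent lists. The median log2 fold change at sub-confluent density was 0.38 for the raised and -0.64 for the lowered transcripts, and 0.83 and -1.34 for those changed at least 2-fold at confluence. Over 12845 transcripts, which are not independent and share libraries and their depth, the log2 fold changes at the 2 densities had Pearson's r = 0.699 and Spearman's rho = 0.629. The sub-confluent p190A replicates were the least alike of experiment 1, with a median absolute log2 difference of 0.26 against 0.15 to 0.20 in the other 7 groups. In a fit of only the sub-confluent p190A and double-knockdown libraries the 2621 calls fell to 217, and they became 1553 without sub-confluent p190A replicate 1 and 1148 without sub-confluent double-knockdown replicate 2. The 1625 transcripts called the same way at both densities became 940 and 1041 without confluent p190A replicates 1 and 2 and 946 without confluent double-knockdown replicate 1.

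Whether the difference between the lines itself differed between densities was tested as an interaction. It was called for 58 transcripts, 0.452% of those tested (1317 at unadjusted p under 0.05, edgeR), with 55 (0.428%) shifted upward and 3 (0.0234%) downward at confluence. The 55 had a median log2 fold change between the lines of 0.98 at confluence and -0.20 at sub-confluent density, and 50 of them were in the raised list. These counts hold the confluent comparison itself, so the overlap with the raised list is no separate evidence. The count changed more with the processing than the others did. It was 0 in a fit of only the 4 groups concerned (927 transcripts at unadjusted p under 0.05, edgeR), 193 with DESeq2, 58 with limma-voom, 488 without the filter on low counts and 338 with a replicate block within density. It was also 0 without confluent p190A replicate 1 or double-knockdown replicate 1 (938 and 888 transcripts at unadjusted p under 0.05, edgeR), 4 without confluent p190A replicate 2, and 364 without sub-confluent p190A replicate 1.

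**Figure D3:**
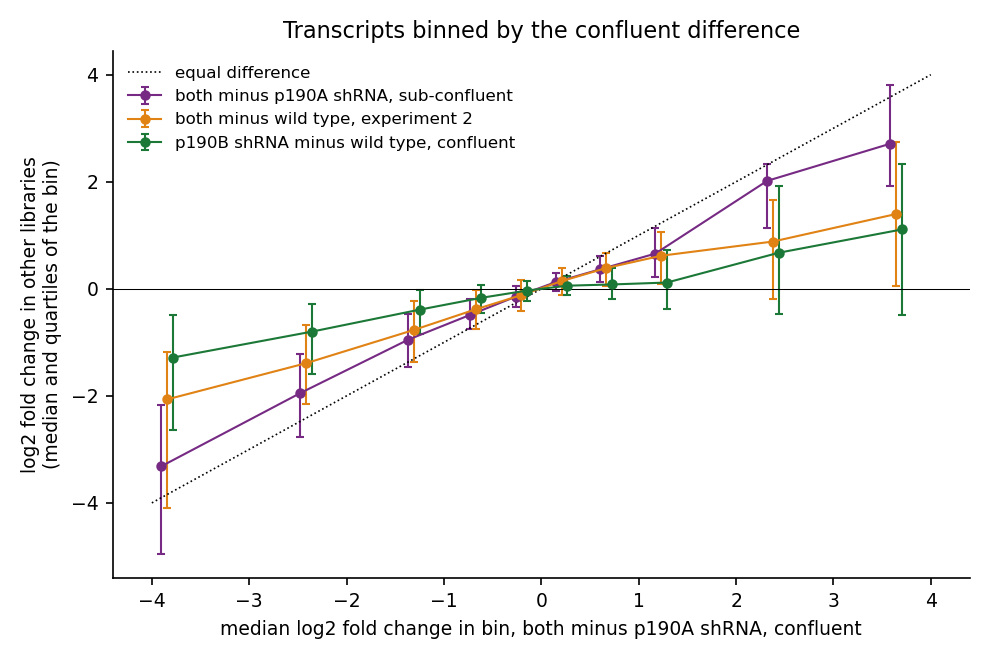
Median log2 fold change, with quartiles as bars, in 3 other comparisons for transcripts binned by their log2 fold change between double-knockdown and p190A cells at confluence, which is the x axis (bin median). In the outermost bins the sub-confluent medians (2.71 and -3.32) lie nearest to the dotted line of equal difference, while in the bins from 0 to 1 the experiment 2 medians (0.14 and 0.39) lie slightly nearer to it than the sub-confluent ones (0.13 and 0.36).

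A bin by bin view of all 12845 transcripts, called or not, showed how far the other comparisons followed. The bins were cut on the confluent estimates, so smaller medians in the other comparisons follow in part from that choice. How large that part is was not tested. The 39 transcripts at least 8-fold higher in the confluent double knockdown had median log2 fold changes of 3.65 there, 2.71 at sub-confluent density, 1.398 between double knockdown and wild type in experiment 2 (30 tested) and 1.11 between p190B and wild type. In the 76 transcripts more than 8-fold lower the medians were -3.85, -3.32, -2.07 (71 tested) and -1.29. With transcripts at 0 in 1 group set against 3 counts, the sub-confluent median of these 76 was -3.07. In the 524 transcripts that were 2-fold to 4-fold higher, the median was 0.66 at sub-confluent density, 0.62 in experiment 2 and 0.12 between p190B and wild type. In the 637 that were 2-fold to 4-fold lower, the medians were -0.95, -0.77 and -0.39.

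Experiment 2 has no cells with the p190A shRNA alone, but its double-knockdown and wild-type libraries are other libraries than those of experiment 1. Whether its double-knockdown cells are the same line as in experiment 1 is not said in the labels, and ENSCAFT00000036275, given above, differed between them (56.7 against 0.654 CPM on average at confluence). In that comparison 70.3% of tested transcripts were called, 35.2% higher and 35.1% lower. Of 1671 raised transcripts tested there, 1271 (76.1%) were higher and 183 lower in double-knockdown cells. Of 1590 lowered transcripts, 1147 (72.1%) were lower and 188 higher. The median log2 fold change was 0.43 for the raised and -0.46 for the lowered transcripts against 0.00 over all, and 0.73 and -0.93 for those changed at least 2-fold in experiment 1. Most transcripts that separate the confluent double-knockdown cells from p190A cells thus also separated double-knockdown from wild-type cells in new libraries. The 2418 transcripts called the same way became 1122 and 1487 without confluent p190A replicates 1 and 2. Leaving out confluent double-knockdown replicates 1 and 2 gave 1148 and 1580.

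Median levels over the sets went the same way in the confluent libraries of both experiments. The 447 transcripts raised at least 2-fold had a median of 6.09 and 6.67 CPM in the p190A and 17.1 and 16.9 CPM in the double-knockdown libraries. Outside the libraries whose difference chose them, they had medians of 7.10 and 6.99 CPM in confluent wild-type and 8.42 and 8.22 CPM in confluent p190B libraries. Experiment 2 gave 9.48 to 9.84 CPM in wild-type and 14.7 to 15.4 CPM in double-knockdown libraries, with no overlap. The 540 transcripts lowered at least 2-fold were at 9.80 and 9.23 CPM in the p190A and 2.71 and 3.41 CPM in the double-knockdown libraries. Confluent wild-type libraries held them at 13.54 and 12.96 CPM and p190B libraries at 7.68 and 8.81 CPM. In experiment 2 they were at 10.4 to 10.7 CPM in wild-type and 4.97 to 5.55 CPM in double-knockdown libraries. Sub-confluent wild-type libraries had the raised set at 11.2 and 11.4 CPM and the lowered set at 6.51 and 6.34 CPM. The sub-confluent p190A replicates lay on either side of wild type, at 9.02 and 12.5 CPM for the raised and 7.07 and 4.18 CPM for the lowered set. Sub-confluent double-knockdown libraries were at 19.5 and 22.1 CPM for the raised and 2.59 and 1.68 CPM for the lowered set.

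**Figure D4:**
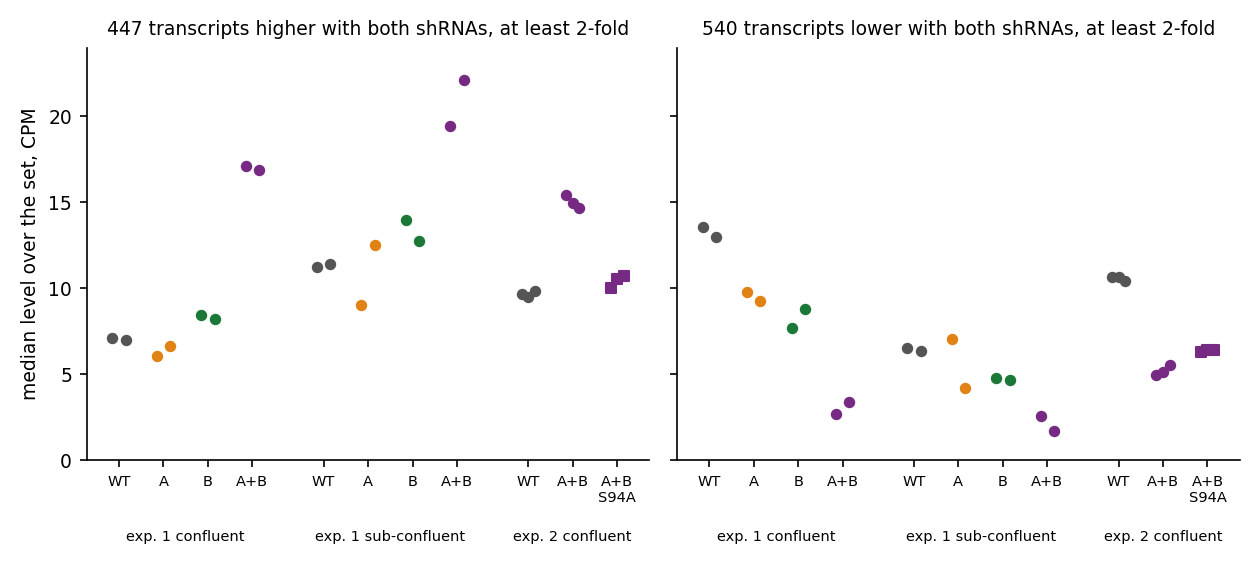
Median level in CPM over the 447 transcripts higher (left) and the 540 lower (right) by at least 2-fold in confluent double-knockdown than p190A cells, 1 point per library, for wild type (WT), p190A shRNA (A), p190B shRNA (B), both (A+B) and both with YAP5SA+S94A (squares). The double-knockdown libraries of experiment 2, which did not choose the sets, lie above wild type on the left (14.7 to 15.4 against 9.48 to 9.84 CPM) and below it on the right (4.97 to 5.55 against 10.4 to 10.7 CPM).

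The sets were also followed into double-knockdown cells that expressed YAP5SA+S94A, the form of YAP1 that cannot bind TEAD. Against double-knockdown cells without it, 51.3% of transcripts were called, 25.9% higher and 25.4% lower. Of the 1671 raised transcripts, 1030 (61.6%) were lower and 161 higher in these cells, and of the 1590 lowered ones 962 (60.5%) were higher and 141 lower. The median log2 fold changes were -0.21 and 0.25, and -0.49 and 0.39 for the sets changed at least 2-fold. This comparison and that with wild type share the double-knockdown libraries of experiment 2. The raised set was at 10.0 to 10.7 CPM with YAP5SA+S94A, and its wild-type range was 9.48 to 9.84 CPM. The lowered set was at 6.30 to 6.42 CPM, above the double-knockdown but below the wild-type libraries. Transcript ENSCAFT00000029200 went from 59.7 ± 0.974 to 14.3 ± 0.651 CPM (SD, n = 3 each; log2 fold change -2.04, SE 0.07, edgeR adjusted p = 2.2e-34). Transcript ENSCAFT00000014635 went from 55.4 ± 1.48 to 181 ± 4.39 CPM (SD, n = 3 each; log2 fold change 1.73, SE 0.04, edgeR adjusted p = 9.1e-42). The other 2 named transcripts went the opposite way to their sets. Transcript ENSCAFT00000008568 rose, from 79.98 ± 3.43 to 159 ± 7.66 CPM (SD, n = 3 each; log2 fold change 1.02, SE 0.04, edgeR adjusted p = 2.1e-30). Transcript ENSCAFT00000036275 fell from 56.7 ± 3.64 to 40.9 ± 1.75 CPM (SD, n = 3 each; log2 fold change -0.46, SE 0.06, edgeR adjusted p = 2.9e-10). Wild-type means in experiment 2 were 87.7 CPM for ENSCAFT00000008568 and 30.7 CPM for ENSCAFT00000036275. The first transcript thus moved away from wild type and the second toward it. No cells with an empty construct were compared here.

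**Figure D5:**
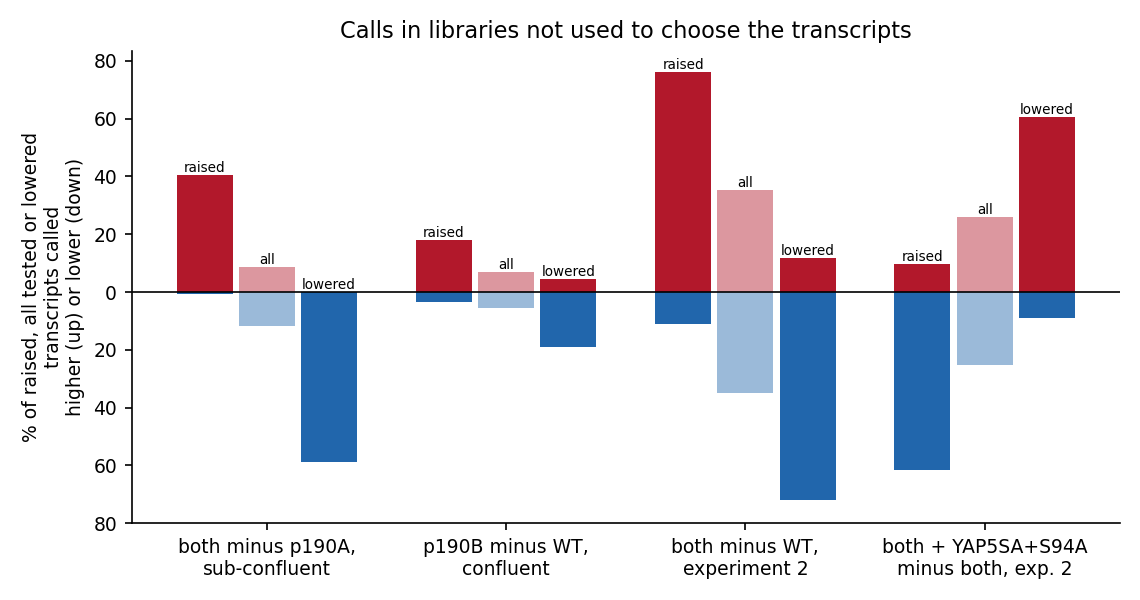
Percent of transcripts called higher (red, upward) or lower (blue, downward) in 4 comparisons for the transcripts raised or lowered in the confluent double knockdown against p190A cells, beside all tested transcripts (pale). In experiment 2, 76.1% of raised transcripts were higher in double knockdown than wild type against 35.2% of all, and 61.6% were lower with YAP5SA+S94A against 25.4% of all.

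The libraries labelled YAP5SA were set against wild type in experiment 2, a comparison that shares its wild-type libraries with that of the double knockdown. Their genotype label names both shRNAs, while their sample names lack the mark that the other double-knockdown libraries carry. Of all tested transcripts 56.6% were called, 29.7% higher and 26.9% lower. Of the 1671 raised transcripts, 799 (47.8%) were higher and 357 (21.4%) lower. Of the 1590 lowered ones, 455 (28.6%) were higher and 615 (38.7%) lower. The median log2 fold changes were 0.14 and -0.06.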

How the data were processed

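Per the labels' protocols, TruSeq mRNA libraries were sequenced as single reads. Tools listed in the submitters' processing notes, with no role given, are DESeq2 1.4.5, HTSeq 0.6.0 and STAR 2.3.1n, and the build listed is CanFam3.1. The authors deposited raw whole-number counts for 29884 Ensembl dog transcripts, 1 table per sample, with 5 summary rows that name no transcript. In the distinct libraries, ambiguous reads were 20.3% to 23.1% and reads outside transcripts 21.2% to 23.8% of uniquely aligned reads, and multiply aligned ones 24.4% to 30.7% of all entries. None of these rows entered a library size or a test. Transcripts that overlap others are counted from part of their reads, and the sources used here do not say whether strand was used.

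Tests used edgeR 4.0.16 (R 4.3.3) with filterByExpr, TMM scaling, robust quasi-likelihood F-tests and Benjamini-Hochberg adjustment over all tested transcripts, with calls made at adjusted p under 0.05. Experiment 1 was fitted with its 16 libraries and 8 group means (biological coefficient of variation 0.128). Experiment 2 was fitted apart, with 4 group means over 11 distinct libraries (0.0303), where 2 identical files labelled YAP5SA were counted as 1 sample. Library totals were 10706716 to 17215544 counts. Standard errors were derived from the F statistic. The procedure was tested on simulated data. Alternatives used RLE scaling, no filter, DESeq2 1.42.0, limma-voom (limma 3.58.1), replicate blocks, smaller sets of libraries, and, other than for the comparisons with YAP5SA+S94A and the libraries labelled YAP5SA, the libraries of each comparison left out in turn. Sub-confluent p190A replicate 2 was also left out of the experiment 1 fit.

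Named transcripts were the 2 with the largest fold change in each direction among those called, not overlapping, and with a mean log2(CPM + 0.5) of at least 3. The offset of 0.5 was not part of the written rule, and without an offset ENSCAFT00000036275 would fall below the minimum. Gene lists were not run, as no transcript could be matched to a symbol. The comparison, lists and rules were chosen with earlier results of these data known, and the comparisons with YAP5SA+S94A and with the libraries labelled YAP5SA were added after values had been seen.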

Additional observations from a re-analysis of the deposited data

Results flagged for a closer look

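The difference between double-knockdown and p190A cells was not the same as that between p190B and wild-type cells for 1293 transcripts, by the interaction test at confluence (edgeR adjusted p under 0.05).

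Transcript ENSCAFT00000036275 had an interaction of -7.34 on the log2 scale (SE 0.38, edgeR adjusted p = 3.2e-07), with 0.658 and 0.650 CPM in the confluent double-knockdown libraries of experiment 1 and higher levels in p190B than in wild-type cells. In the double-knockdown libraries of experiment 2 it was at 54.3 to 60.9 CPM.

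Transcript ENSCAFT00000014635 had an interaction of -3.90 on the log2 scale (SE 0.45, edgeR adjusted p = 0.00023), since it fell in both comparisons and by more in the p190A background. The interaction did not pass the test for ENSCAFT00000008568 (2.46 on the log2 scale, SE 0.76, edgeR adjusted p = 0.056). Nor did it pass for ENSCAFT00000029200 (4.23 on the log2 scale, SE 1.53, edgeR adjusted p = 0.099).

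The difference between double-knockdown and p190A cells differed between confluent and sub-confluent cultures for 58 transcripts (edgeR adjusted p under 0.05). That number depended on the processing, at 58 with limma-voom, 193 with DESeq2 and 488 without the filter on low counts. It was 0 once the wild-type and p190B libraries were dropped from the fit. Leaving out single libraries also changed it, so how many transcripts differ between densities is not settled.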

How the results depend on the processing

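The 3285 confluent calls stayed within 1.5 times under every alternative other than leaving out a library (3185 to 4767), and the log2 fold changes of the 4 named transcripts kept their direction and call in all 13 alternatives run for each. Over fits that left out 1 library, the 3285 calls ranged from 1468 to 3930, the 987 calls of at least 2-fold from 620 to 1069, the 1629 p190B calls from 814 to 1939, the 1293 interaction calls from 615 to 1929, the 2621 sub-confluent calls from 1148 to 3410 and the 58 density interactions from 0 to 364. The experiment 2 count of 9180 ranged from 8722 to 8820. The transcripts called the same way ranged from 360 to 778 in the p190B comparison, from 940 to 2306 at sub-confluent density and from 1122 to 2820 in experiment 2. The highest values of most of these came without sub-confluent p190A replicate 2.

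Without the filter on low counts the interaction with p190A gave 2004 calls and that with density 488, of which 72.8% were shifted upward. In fits of only the groups compared the 1293 interaction calls became 2374, the 2621 sub-confluent calls 217 and the 58 density interactions 0. DESeq2 gave 193 density interactions. Fits of only the confluent libraries gave 2374 interaction calls and 966 transcripts shared with the p190B comparison. The cause of these shifts was not tested.

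The replicate numbers are shared by the groups, but nothing in the labels says that they mark a shared culture. Same-numbered confluent libraries deviated together, with r of 0.280 across transcripts between the p190A and double-knockdown pairs and 0.220 to 0.579 over the 6 pairs of confluent groups. A replicate block over all libraries changed no count by more than 1.5 times. With a replicate block within density the counts were 2511 for p190B against wild type, 2601 for the interaction, 4062 at sub-confluent density, 338 for the density interaction, and 1098 and 2662 for the transcripts shared with the p190B and sub-confluent comparisons. Depth limits low transcripts: up to 2.80 CPM the median standard error was 0.51, and 266 of the 101 higher and 176 lower calls there were at least 2-fold.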

Other observations

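Transcript ENSCAFT00000008568 reached 505 ± 10.5 CPM (SD, n = 2) in the libraries labelled YAP5SA of experiment 2, against 87.7 ± 2.32 CPM (SD, n = 3) in wild type. Transcript ENSCAFT00000036275 was at 10.3 ± 1.09 CPM (SD, n = 2) there against 30.7 ± 0.937 CPM (SD, n = 3) in wild type. Among the 12 groups, it was below 20 CPM only in these libraries and in the double-knockdown libraries of experiment 1. Transcript ENSCAFT00000014635 was at 123 ± 2.52 CPM (SD, n = 2), below wild type and above double-knockdown cells of experiment 2. Transcript ENSCAFT00000029200 was at 5.09 ± 0.0237 CPM (SD, n = 2).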
